A study of Mus musculus and Rattus norvegicus with 32 samples.

Results

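The genes described here encode the matrix metalloproteinases (MMPs), their tissue inhibitors (TIMPs), the ADAM membrane proteases and the ADAMTS secreted proteases with the related ADAMTS-like proteins (ADAMTSL). Members were all rows whose symbol begins with Mmp, Timp or Adam followed by a digit, or with Adamts. The rule used names only, no measured value. It found 85 of 55487 rows in each of the 3 mouse tables, made up of 23 MMPs, 4 TIMPs, 34 ADAMs, 19 ADAMTS and 5 ADAMTSL genes, and 75 of 32883 rows in the rat table. The symbols of 73 members occurred in both species.

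MMPs are zinc-dependent enzymes that cut collagens, gelatin, proteoglycans and other proteins of the extracellular matrix. Most are made as inactive proenzymes, and the TIMPs bind the active site and hold the enzymes in check. ADAMs sit in the plasma membrane and release growth factors, cytokines and receptors from the cell surface. ADAMTS proteases are secreted and trim procollagens and proteoglycans, whereas the ADAMTSL proteins resemble their non-catalytic part and lack the protease domain. In the heart these families are known for their part in the remodelling of the matrix when the ventricle is overloaded.

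METTL5 is the methyltransferase that places N6-methyladenosine on 18S ribosomal RNA. The series holds 32 RNA sequencing libraries in 8 groups of 4. Hearts of 1-month-old C57BL/6 mice were labelled Ctrl or Mettl5-KO, the latter lacking METTL5 in the whole body. Hearts of 3-month-old C57BL/6 mice were labelled Ctrl or Mettl5-cKO. The conditional mice carried Myh6-Cre, which acts in cardiomyocytes, and a floxed Mettl5 gene, so that other cells of the heart kept the gene. A further set of Ctrl and Mettl5-cKO hearts, labelled 3-month-old as well, was taken 4 weeks after transverse aortic constriction (TAC), an operation that overloads the left ventricle. Neonatal rat ventricular myocytes (NRVMs) came from Sprague Dawley rats on postnatal day 2, were pre-plated against fibroblasts, and received an adenovirus with GFP (AdGFP) or with METTL5 (AdMettl5). All NRVMs of both groups were treated with 20 μM phenylephrine (PE) for 24 h, so no unstimulated group stands beside them. The hearts are mixtures of cells, and fewer cells of a type cannot be told apart from less RNA per cell.

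Total counts ranged from 19899033 to 21804907 per mouse library. In NRVMs they ranged from 17344430 to 18085339 with AdGFP and from 14324700 to 14642431 with AdMettl5, so depth differed between those groups. CPM here means counts over library sizes scaled by the trimmed mean of M-values (TMM). The study reports the floxed exons of Mettl5 as almost undetectable in Mettl5-cKO hearts. The count of the whole Mettl5 gene does not single out these exons. It overlapped between genotypes in all 3 mouse comparisons and did not separate the labelled groups. It was at 4.5 to 5.93 CPM in Ctrl and 5.26 to 6.7 CPM in Mettl5-KO hearts at 1 month, at 6.86 to 8.11 and 5.6 to 7.28 CPM at 3 months, and at 5.61 to 7.13 and 5.6 to 7.31 CPM after TAC. The rat gene was at 16.2 to 18 CPM with AdGFP and 19.1 to 23 CPM with AdMettl5, whose virus carried the human coding sequence. Myocyte markers such as Myh6, Myh7 and Tnnt2 summed to at least 9140 CPM in every library. 1 Ctrl heart at 1 month stood apart, with neutrophil markers at 51.4 CPM against 1.83 to 11.6 CPM in the other 7 libraries of that table. A gene was tested where it passed the filter on low counts, and "called", as well as "rose" and "fell", means an adjusted p under 0.05 (quasi-likelihood test of edgeR, Benjamini-Hochberg adjusted over all genes tested). Nothing in the labels ties the 4 libraries of a group to separate animals or cultures, so the p-values measure the spread between these libraries.

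The promoters of 4 members are shown because they place the letters of common promoter motifs next to genes that moved after TAC and genes that did not. Each line gives the 120 bases just before the start site of the RefSeq transcript, 5′ to 3′ on the gene's own strand (RefSeq, GRCm38.p6), with the searched motifs in capitals. Timp1 lies on the plus strand (window chrX:20870046-20870165), as do Adamtsl2 (chr2:27079259-27079378), Mmp3 (chr9:7445702-7445821) and Mmp13 (chr9:7272394-7272513).
Timp1: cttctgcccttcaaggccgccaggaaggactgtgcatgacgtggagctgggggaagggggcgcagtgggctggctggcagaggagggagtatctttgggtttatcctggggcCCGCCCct
Adamtsl2: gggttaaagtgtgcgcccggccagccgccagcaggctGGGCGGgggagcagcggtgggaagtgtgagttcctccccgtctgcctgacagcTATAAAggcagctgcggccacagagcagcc
Mmp3: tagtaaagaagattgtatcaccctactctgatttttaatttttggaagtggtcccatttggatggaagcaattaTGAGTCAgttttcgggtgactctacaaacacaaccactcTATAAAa
Mmp13: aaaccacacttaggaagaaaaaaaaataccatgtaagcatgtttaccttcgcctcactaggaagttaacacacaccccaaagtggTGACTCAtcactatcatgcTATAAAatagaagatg
The capitals mark TATAAA (the letters of a TATA box), GGGCGG (those of a GC box) and TGANTCA (those to which AP-1 factors are known to bind), searched on both strands. The motifs share no overlapping match in these windows. In Timp1 the only match began 8 bases before the start site (GGGCGG, read on the other strand as CCGCCC). In Adamtsl2 TATAAA began at -30 and GGGCGG at -83. In Mmp3 TGANTCA began at -46 and TATAAA at -7, and in Mmp13 they began at -35 and -16.

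Over the 250 bases before the start, 54 members had at least 1 entry in the promoter table, with 59 promoters in all. TGANTCA occurred in 12 of these 59 (20.3%), against 6.75% of all 32851 promoters of the same length. The 12 genes were Mmp1a, Mmp1b, Mmp3, Mmp7, Mmp10, Mmp12, Mmp13 and Mmp20, which all lie in the MMP cluster of chromosome 9, and Adam19, Adam20, Adam25 and Adam29. Of the promoters of members too low to be tested after TAC, 9 of 26 held TGANTCA, and of those of tested members 3 of 33. The latter were promoters of Adam19, Mmp3 and Mmp13. Mmp3 and Mmp13, picked for display above, are thus not typical of the tested members that were not called. Of the 8 promoters of members called after TAC, 0 held it, 5 held GGGCGG (62.5%, beside 20 of the 33 of tested members or 60.6%, and 32.7% of all promoters) and 1 held TATAAA (beside 4 of these 33, and 12.4% of all promoters). The called members Adamts7, Adamts4, Mmp2, Adamts8, Adam9 and Adam12 had no entry. Motifs this short do not mark a site by themselves, and these counts describe letters only.

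How strongly the members were expressed differed widely. 15 of the 85 mouse members had 0 counts in all 24 heart libraries, and 37 were too low to be tested in any mouse table. These were 21 ADAMs, 12 MMPs and 4 ADAMTS genes. Tested members numbered 45 at 1 month, 44 at 3 months and 46 after TAC, of which 41 were tested in all 3, and 48 in NRVMs. Per kilobase of exon, Timp3 led in all 6 heart groups. In Ctrl TAC hearts Timp3, the matrix-bound inhibitor, reached a level of 32.5 ± 2.58 CPM per kb (SD, n = 4). It was followed by Adamtsl5 (23.1 ± 2.54), Timp2 (17.4 ± 0.617), Adam15 (13.2 ± 1.11) and Timp4 (12.9 ± 1.92), of which Adam15 and Timp4 overlapped. In Mettl5-cKO TAC hearts Timp2 stood at 31.9 ± 6.41 CPM per kb, beside Timp3 at 32.1 ± 2.07, and Timp1 (23.0 ± 12.2) and Mmp2 (22.5 ± 6.41) had joined the 5 highest. Timp1 ranged from 8.37 to 36.0 CPM per kb among the 4 Mettl5-cKO libraries. In NRVMs, where no gene lengths were used and levels cannot be ranked between genes, Mmp2, Adam19, Timp2, Mmp14 and Adamts2 had the highest CPM.

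The unstressed hearts asked whether loss of METTL5 alone moved these genes. At 1 month 0 of 45 tested members passed edgeR's test in either direction, where 0.00612% of all tested genes did, and 2 of 45 had an unadjusted p under 0.05, against 4.57% of all genes. DESeq2 called 0 as well, against 0.0878% of all genes. Groups did not overlap for 0 members, against 3.01%. The lowest p-values belonged to Adamtsl5, the proteoglycanase Adamts15 and Adamts12, which can cut cartilage oligomeric matrix protein. Adamtsl5 was at 98.4, 71.3, 78.5 and 78.2 CPM in Ctrl and 46.5, 52.1, 73.2 and 70.6 CPM in Mettl5-KO hearts, a log2 fold change of -0.43 (SE 0.17, adjusted p = 0.973). The groups overlapped. Adamts15 had a log2 fold change of -0.65 and Adamts12 of 0.52, each with an adjusted p of 0.973 and overlapping groups.

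The remaining members of interest were not called at 1 month either. Log2 fold changes were 0.38 for Timp1, 0.07 for Timp2, -0.22 for Timp3 and 0.12 for Timp4. They were -0.02 for Mmp2, 0.10 for Mmp14, 0.11 for Adamts1, -0.04 for Adam10 and 0.08 for Adam17, and -0.26 for Adam15 and 0.00 for Mmp15 among the best expressed. All had adjusted p-values of at least 0.973. Mmp9, the neutrophil and macrophage gelatinase, was too low to be tested, with 70 counts in the Ctrl heart that stood apart and 0 to 10 counts in the other 7 libraries. Mmp8, the neutrophil collagenase, had 138 counts in that heart and 0 to 9 elsewhere. The same heart had the lowest Adamtsl2 of its group, at 3.80 CPM against 18.8 to 21.7 CPM. How far its cell content bore on the 1-month values was not tested.

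At 3 months the members were again not called, 0 of 44, against a background of 0.0732%, while 6 of 44 had an unadjusted p under 0.05, against 7.05%. DESeq2 called 2 of them higher, Mmp2 and Adam11, where it called 0.71% of all genes. Mmp2, the gelatinase that cuts denatured collagen, was at 26.7, 22.0, 22.6 and 22.1 CPM in Ctrl and 34.6, 34.2, 32 and 38.8 CPM in Mettl5-cKO hearts. Every Mettl5-cKO heart lay above every Ctrl heart. The log2 fold change was 0.58 (SE 0.0985), with an adjusted p of 0.135 in edgeR and 4.1e-05 in DESeq2. Adam11, an ADAM without protease activity, was at 8.64 to 11.4 CPM in Ctrl and 13.7 to 16.2 CPM in Mettl5-cKO hearts, without overlap. Its log2 fold change was 0.50 (SE 0.113), with an adjusted p of 0.285 in edgeR and 0.0252 in DESeq2. Fibroblast markers summed to 368 to 485 CPM in Ctrl and 468 to 615 CPM in Mettl5-cKO hearts at 3 months, with 0 of 7 called, and their part in these values was not tested.

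The 4 TIMPs had log2 fold changes of 1.45 for Timp1, 0.45 for Timp2, 0.11 for Timp3 and 0.10 for Timp4 at 3 months. Timp2 was at 73.1, 52.5, 57.5 and 56.7 CPM in Ctrl and 91.8, 87.4, 76.0 and 72.5 CPM in Mettl5-cKO hearts (adjusted p = 0.383 in edgeR), and the groups overlapped through a single Ctrl library. Timp1 was at 0.699 to 2.11 CPM in Ctrl and at 2.44, 8.38, 1.93 and 4.09 CPM in Mettl5-cKO hearts (adjusted p = 0.545 in edgeR). Adam10, which sheds Notch and many other receptors, was the only member whose Mettl5-cKO hearts all lay below Ctrl, at 23.2 to 28.3 against 28.7 to 31.1 CPM (log2 fold change -0.23, adjusted p = 0.601 in edgeR). Groups did not overlap for 3 of 44 members, against a background of 4.23% of all tested genes. Mmp9 (-0.08), Mmp14 (0.30), Adam17 (-0.16), Adamts1 (-0.23), Adamtsl5 (-0.07), Mmp15 (-0.14) and Adam15 (-0.31) had log2 fold changes with adjusted p-values of 0.839 to 0.999.

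In Mettl5-cKO hearts after TAC 10 members rose and 3 fell out of 46 tested, 28.3% against a background of 12.7% of all tested genes (6.57% higher and 6.1% lower). Timp1 rose most, 7.60-fold, followed by the proteoglycanases Adamts8 and Adamts4. The microfibril-associated Adamtsl2, the procollagen N-propeptidase Adamts2 and the gelatinase Mmp2 rose too, together with Adam12, Mmp23, Adam9 and Timp2. Adamts7, Adam23 and the membrane-type MMP Mmp15 fell. With the further limit of an absolute log2 fold change over 1, 8 rose and 1 fell, against 2.9% of all tested genes. Groups did not overlap for 15 of 46 members, against 18.6%, and 23 of 46 had an unadjusted p under 0.05, against 31%. Library size alone as scaling shifted the median of all genes by 0.146 on the log2 scale and gave 13 members higher and 2 lower, against 12.6% and 3.21% of all genes (15.8% in all). Adamts4, Adamts8 and Adam12 passed the filter on low counts only through the Mettl5-cKO hearts, where they are high. With at least 10 counts required in every library they were not tested. In that setting 10 members were called, where 14.5% of all genes were, and the number of members tested is not given here. By family 2 of 4 TIMPs, 3 of 11 tested MMPs, 3 of 13 ADAMs, 4 of 13 ADAMTS and 1 of 5 ADAMTSL genes were called. The median log2 fold change of all tested members of a family was 0.43 for TIMPs, 0.09 for MMPs, -0.09 for ADAMs, 0.18 for ADAMTS and 0.15 for ADAMTSL genes, beside -0.003 for all tested genes.

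**Figure D1:**
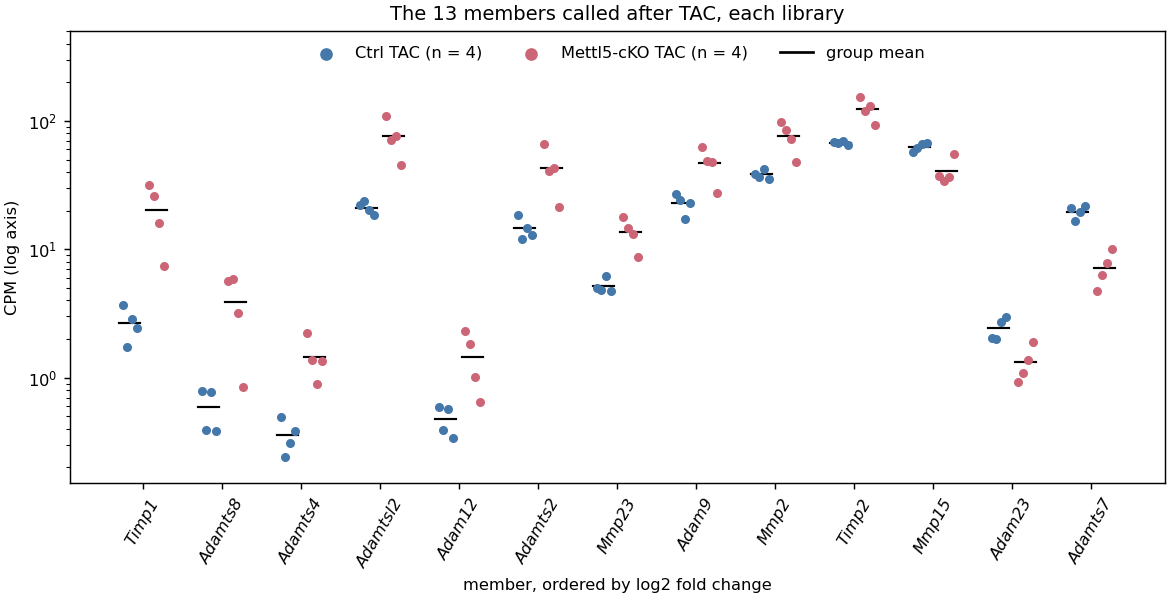
CPM of the 13 members called after TAC on a logarithmic axis, with 1 point per library and a line at the mean of each group of 4. All 4 Mettl5-cKO TAC libraries lie on one side of all 4 Ctrl TAC libraries for each of the 13 members, and Timp1 spreads from 7.43 to 32 CPM among the Mettl5-cKO hearts.

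Timp1 (chromosome X, 20870166 to 20874735, GRCm38) is the secreted inhibitor whose promoter is shown above. It was at 3.71, 1.75, 2.86 and 2.42 CPM in Ctrl TAC hearts and at 32, 26.1, 16.1 and 7.43 CPM in Mettl5-cKO TAC hearts. All Mettl5-cKO values were above the Ctrl range, but they were far apart among themselves. The log2 fold change was 2.93 (SE 0.433, adjusted p = 0.00783 in edgeR), and it lay between 2.63 and 3.21 when each library in turn was left out. Timp1 lies within Syn1 on the opposite strand, and the strandedness of the counting is not given in the sources used here.

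Timp2 (chromosome 11, 118301069 to 118355740) inhibits MMPs and also takes part in the activation of pro-MMP2 together with MMP14. Its values were 69.0, 67.0, 69.9 and 64.5 CPM in Ctrl TAC hearts and 154, 120, 130 and 93.4 CPM in Mettl5-cKO TAC hearts. The Ctrl hearts were tightly grouped, and every Mettl5-cKO heart was above them. Timp2 rose 1.84-fold, a log2 fold change of 0.88 (SE 0.133, adjusted p = 0.0085 in edgeR). It shares its strand with Cep295nl, which overlaps it.

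The other two TIMPs did not pass the test. Timp3 was at 265 ± 21.1 CPM in Ctrl TAC and 262 ± 16.8 CPM in Mettl5-cKO TAC hearts (n = 4, SD). Its log2 fold change was -0.02 (SE 0.0839, adjusted p = 0.912 in edgeR). Timp4, the TIMP with the narrowest expression and a high level in heart, was at 61.3, 76.0, 88.9 and 77.3 CPM in Ctrl and 33.6, 57.2, 39.3 and 68.0 CPM in Mettl5-cKO TAC hearts. The groups overlapped, and the log2 fold change of -0.62 (SE 0.212) had an adjusted p of 0.0839 in edgeR and 0.0345 in DESeq2. Without Mettl5-cKO TAC library 4, which had the highest Timp4 of its group, edgeR gave -0.80 with an adjusted p of 0.0168.

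**Figure D2:**
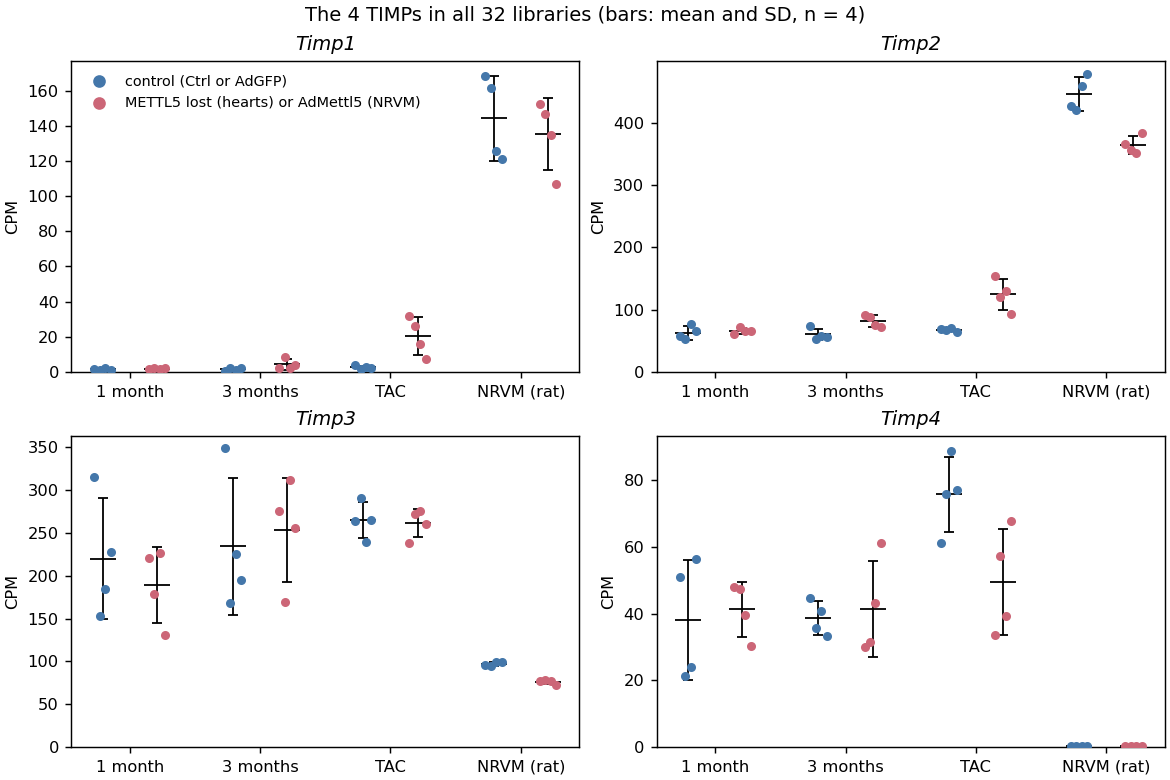
CPM of the 4 TIMPs in all 32 libraries, with 1 point per library and the mean and SD of each group of 4; the 4 tables were scaled separately. Timp1 and Timp2 are higher in Mettl5-cKO than in Ctrl hearts after TAC, Timp3 overlaps there, and Timp4 in NRVMs does not exceed 0.318 CPM.

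Among the MMPs, Mmp2 (chromosome 8, 92827291 to 92853420) was at 38.7, 36.9, 42.4 and 35.6 CPM in Ctrl TAC hearts and 98.3, 84.9, 72.3 and 47.5 CPM in Mettl5-cKO TAC hearts. It rose 1.97-fold, a log2 fold change of 0.98 (SE 0.190, adjusted p = 0.0156 in edgeR). The call was lost without Ctrl TAC library 4 (adjusted p = 0.0566) or Mettl5-cKO TAC library 2 (0.0514). Mmp14, the membrane enzyme that activates pro-MMP2, was at 4.55 to 6.49 CPM in Ctrl and 16.3, 10.2, 9.04 and 5.63 CPM in Mettl5-cKO TAC hearts. Only Mettl5-cKO library 4 fell inside the Ctrl range. The log2 fold change of 0.86 (SE 0.278) had an adjusted p of 0.0693 in edgeR. It was called without Mettl5-cKO library 4 (log2 fold change 1.07, adjusted p = 0.00819), in DESeq2 (0.0252) and with library size alone as scaling (0.0425).

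Mmp23 (chromosome 4, 155650655 to 155653384), a small MMP anchored in the membrane by its N-terminal part, rose from 5.17 ± 0.685 to 13.6 ± 3.82 CPM (SD, n = 4). Its 4 Mettl5-cKO values of 18, 14.7, 13.1 and 8.78 CPM were all above the highest Ctrl value of 6.18 CPM (log2 fold change 1.40, SE 0.202, adjusted p = 0.00745 in edgeR). Mmp15 (chromosome 8, 95352268 to 95375080), a membrane-type MMP, fell from 62.9 ± 4.52 to 40.9 ± 9.97 CPM. Mettl5-cKO library 4, at 55.6 CPM, was close to the lowest Ctrl heart at 56.9 CPM, and the other 3 were at 33.9 to 37.4 CPM. The log2 fold change of -0.62 (SE 0.149, adjusted p = 0.0289 in edgeR) missed the threshold without Ctrl libraries 2, 3 or 4 or Mettl5-cKO libraries 1, 2 or 3, at adjusted p-values of 0.0698 to 0.0872. Mmp9 was low, at 0.572 to 0.842 CPM in Ctrl and 0 to 0.876 CPM in Mettl5-cKO TAC hearts, with overlapping groups (adjusted p = 0.405 in edgeR). Of the collagenases only Mmp13 was tested, with a log2 fold change of -0.33 and an adjusted p of 0.545.

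The ADAMTS and ADAMTSL genes held both the strongest rises beside Timp1 and the deepest fall. Adamtsl2 (chromosome 2, 27079379 to 27108981), which binds fibrillin microfibrils and is known to limit TGF-beta release, was at 22.2, 23.6, 20.2 and 18.6 CPM in Ctrl and 110, 71.4, 76.7 and 45.4 CPM in Mettl5-cKO TAC hearts. Every Mettl5-cKO heart was clear of the Ctrl hearts. It rose 3.58-fold (log2 fold change 1.84, SE 0.229, adjusted p = 0.00545 in edgeR), the lowest p of any member. Adamts7 (chromosome 9, 90163069 to 90208071), which cuts cartilage oligomeric matrix protein, fell from 21, 16.5, 19.7 and 21.6 CPM to 4.77, 6.28, 7.79 and 10.0 CPM. Its log2 fold change was -1.45 (SE 0.199, adjusted p = 0.00671 in edgeR), and it overlaps Tbc1d2b on the opposite strand. The other member that cuts this protein, Adamts12, was at 1.51 ± 0.381 in Ctrl and 2.05 ± 0.956 CPM in Mettl5-cKO TAC hearts (adjusted p = 0.395 in edgeR).

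Adamts2 (chromosome 11, 50602084 to 50807573) removes the N-propeptide of fibrillar procollagens. It was at 18.6, 12.0, 14.8 and 12.9 CPM in Ctrl and 66.7, 40.8, 43.2 and 21.5 CPM in Mettl5-cKO TAC hearts, a rise of 2.96-fold (log2 fold change 1.57, SE 0.296, adjusted p = 0.0148 in edgeR). The call was lost without Ctrl TAC library 4 (adjusted p = 0.0537). The remaining N-propeptidases did not pass the test, with log2 fold changes of 0.19 for Adamts3 and -0.07 for Adamts14. Of the 7 proteoglycanases, which cut versican and aggrecan, 6 were tested, and those called were Adamts4 and Adamts8, both low in Ctrl hearts. Adamts4 was at 0.243 to 0.495 CPM in Ctrl and 2.23, 1.37, 0.888 and 1.35 CPM in Mettl5-cKO TAC hearts (log2 fold change 2.00, SE 0.340, adjusted p = 0.0116 in edgeR).

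Adamts8 was at 0.792, 0.389, 0.779 and 0.388 CPM in Ctrl and 5.69, 5.83, 3.19 and 0.848 CPM in Mettl5-cKO TAC hearts. Mettl5-cKO library 4 was just above the Ctrl range. The log2 fold change of 2.73 (SE 0.564, adjusted p = 0.0185 in edgeR) was not called without Ctrl libraries 2 or 4 or Mettl5-cKO library 2 (adjusted p = 0.0562 to 0.0651). Adamts1, another proteoglycanase, was at 25.9, 53.9, 30.0 and 29.8 CPM in Ctrl and 40.0, 59.4, 51.4 and 48.2 CPM in Mettl5-cKO TAC hearts (adjusted p = 0.153 in edgeR). Ctrl library 2 alone lay within the Mettl5-cKO range, and without it Adamts1 was called (log2 fold change 0.80, adjusted p = 0.0321).

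Among the ADAMs, Adam9, a widely expressed membrane protease, rose from 22.8 ± 4.07 to 46.8 ± 14.6 CPM (SD, n = 4; log2 fold change 1.04, SE 0.230, adjusted p = 0.0224 in edgeR). Mettl5-cKO library 4, at 27.5 CPM, was within 1 CPM of the highest Ctrl heart at 26.8 CPM. The call was lost when a single one of Ctrl libraries 2, 3 and 4 or Mettl5-cKO libraries 1, 2 and 3 was left out, at adjusted p-values of 0.0514 to 0.0682. Adam12, which is linked to fusing and mesenchymal cells, was low, at 0.339 to 0.594 CPM in Ctrl and 2.32, 1.82, 1.01 and 0.648 CPM in Mettl5-cKO TAC hearts (log2 fold change 1.61, SE 0.413, adjusted p = 0.0349 in edgeR). Adam23, a catalytically inactive ADAM best known from neurons, fell from 2.42 ± 0.484 to 1.32 ± 0.426 CPM (log2 fold change -0.88, SE 0.238, adjusted p = 0.0415 in edgeR). Leaving out a library raised the adjusted p to as much as 0.102 for Adam12, which lost its call when any single Ctrl library or Mettl5-cKO library 1 or 2 was left out. It raised that of Adam23 to as much as 0.121, which lost its call when any single library other than Mettl5-cKO library 4 was left out.

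The main sheddases did not pass the test. Adam10 was at 28.0 ± 2.42 CPM in Ctrl and 28.9 ± 3.81 CPM in Mettl5-cKO TAC hearts (SD, n = 4; log2 fold change 0.05, SE 0.108). Adam17, which releases TNF and ligands of the EGF receptor, was at 19.6 ± 0.902 and 18.4 ± 1.46 CPM (log2 fold change -0.09, SE 0.0798). Both groups of libraries overlapped, as they did for the abundant Adam15 (-0.19) and Adamtsl5 (0.15).

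The Mettl5-cKO TAC libraries were ordered much alike across the called members. Library 1 was the highest of its 4 in 9 of the 10 members that rose, and library 4 was the lowest in 9 of 10. Without library 4, 12 members were called higher and 7 lower, where 23.4% of all tested genes were called, while without Ctrl library 4 the counts were 6 and 1, where 2.87% were, and without Mettl5-cKO library 2 they were 6 and 1 as well, where 3.24% were. Leaving out any of Ctrl libraries 2 and 3 and Mettl5-cKO libraries 1 and 3 left 1 member lower, where 1.74%, 2.67%, 2.51% and 2.67% of all genes were called lower in this order, and leaving out Ctrl library 1 left 2, where 4.39% were. Markers of fibroblasts moved with the members. They summed to 497 to 624 CPM in Ctrl and to 2410, 1650, 1610 and 766 CPM in Mettl5-cKO TAC libraries 1 to 4, and 6 of the 7 genes were called higher. Macrophage markers were at 151 to 183 CPM in Ctrl and 200 to 247 CPM in Mettl5-cKO hearts (3 of 7 called higher), and endothelial markers at 525 to 609 and 386 to 477 CPM (4 of 6 called lower). Cardiomyocyte markers were at 28100 to 32700 and 22900 to 28000 CPM, with 1 of 7 called lower, and smooth muscle markers overlapped at 90 to 116 and 85.3 to 128 CPM. The part of these cell types in the changes of the members was not tested. Neutrophil markers stayed at or under 7.31 CPM, with Ly6g at 0 in every library.

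Members that changed after TAC were then followed in the unstressed table, which shares no library with it. Of the 13, 11 were tested at 3 months, 10 of these had the same sign (90.9%) and 0 were called by edgeR. Of all 2071 genes called after TAC, 2027 were tested at 3 months and 1731 (85.4%) had the same sign. Adamts8 is among the 10, although it passed the filter on low counts after TAC only through the Mettl5-cKO hearts, where it is high. At 3 months it had 7 to 12 counts per library (log2 fold change 0.37). The 90.9% was not recomputed without it. Adam23 was the exception, with -0.88 after TAC and 0.05 at 3 months. Log2 fold changes after TAC and at 3 months were 2.93 and 1.45 for Timp1, 0.88 and 0.45 for Timp2, and 0.98 and 0.58 for Mmp2. They were 1.84 and 0.43 for Adamtsl2, -1.45 and -0.30 for Adamts7, and 1.04 and 0.05 for Adam9. The difference between both genotype effects was tested in 1 fit over 16 libraries. Of 48 members 0 passed, against a background of 0.00586% of all tested genes, and 16 of 48 had an unadjusted p under 0.05, against 11.8%.

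The lowest adjusted p for such a difference was 0.128, for Adamtsl2, whose effect after TAC exceeded that at 3 months by 1.43 on the log2 scale (SE 0.335). Adamts7 followed with -1.13 (SE 0.297, adjusted p = 0.154). DESeq2 called both of these members, and called 1.55% of all genes. Without Mettl5-cKO TAC library 4, edgeR called 9 members (Adam9, Adam11, Adam12, Adamts2, Adamts7, Adamts8, Adamtsl2, Mmp2 and Mmp23), where 3.91% of all genes were called. Among them Adam12 and Adamts8 are low in Ctrl hearts. In the fit of the TAC libraries alone they had passed the filter on low counts only through the Mettl5-cKO hearts, where they are high. A difference between stressed and unstressed hearts was thus not shown for the members by edgeR on all 16 libraries. The stressed and unstressed hearts were also in different tables. The operation and the table can therefore not be told apart in the Ctrl hearts, and their levels were not compared.

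**Figure D3:**
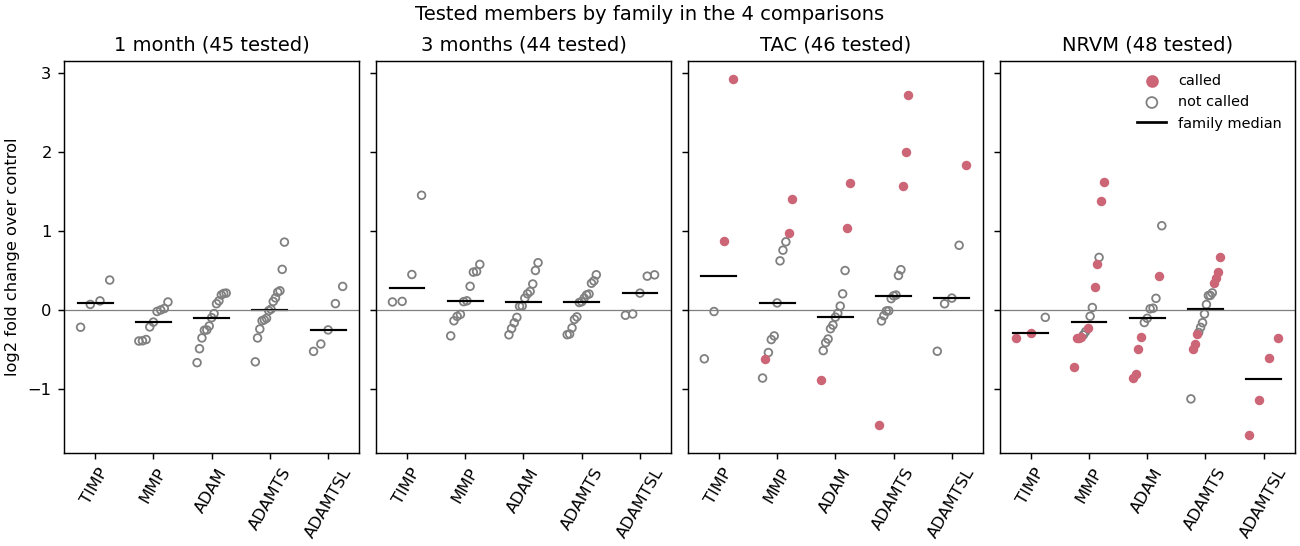
Log2 fold change of each tested member over control, by family, in the 4 comparisons; filled points passed the test, open points did not, and lines are family medians. No point is filled at 1 or 3 months, 13 are after TAC and 27 in NRVMs, where all 4 ADAMTSL genes lie below 0.

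In NRVMs the opposite manipulation was made, more METTL5 in place of less. AdMettl5 raised 9 members and lowered 18 of 48 tested. This is 56.2% against a background of 52.8% of all tested genes, so the share of members that moved was close to that of genes at large. Higher calls were 27.1% and lower calls 25.7% of all genes. The split depended on scaling. With library size alone, which shifted the median of all genes by 0.135 on the log2 scale, 13 members were higher and 12 lower, against 39% and 15.6% of all genes (54.6% in all), so higher calls went from 33.3% to 52% of the calls. Groups did not overlap for 30 of 48 members, against 48.4% of all genes, and 30 of 48 had an unadjusted p under 0.05, against 58.2%. Relative to TMM the members leaned to the lower side (median log2 fold change -0.16, beside -0.002 for all genes). Changes were mostly small, and only 2 members in each direction passed an absolute log2 fold change of 1, against 5.85% of all tested genes.

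**Figure D4:**
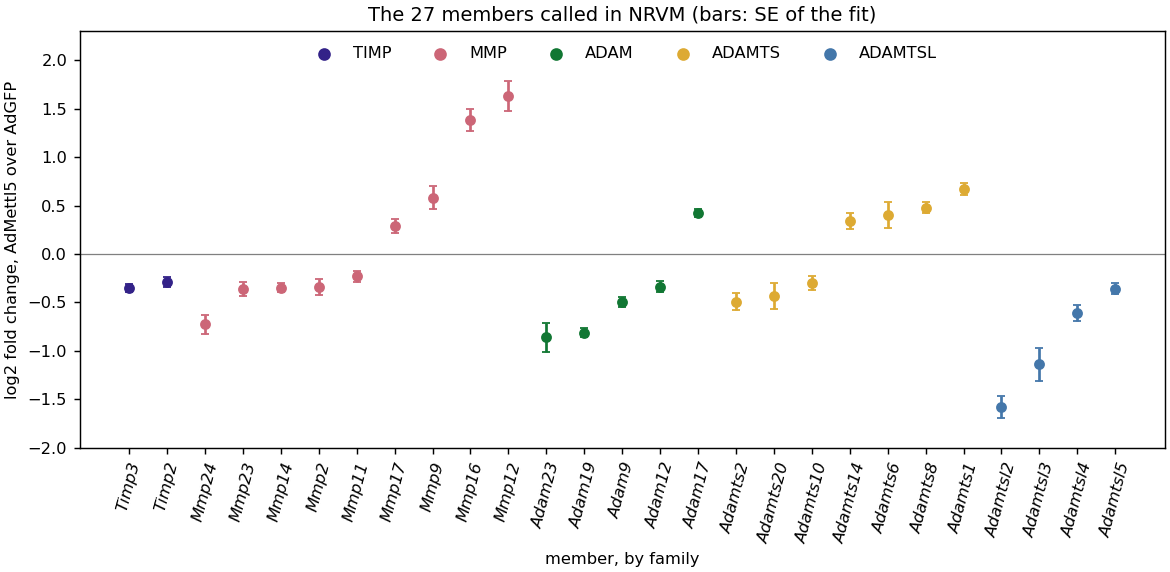
Log2 fold change of AdMettl5 over AdGFP for the 27 members called in NRVMs, grouped by family, with bars for the SE of the fit (4 libraries per group). Mmp12 (1.63) and Mmp16 (1.38) are the highest, Adamtsl2 (-1.58) and Adamtsl3 (-1.14) the lowest.

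All 4 ADAMTSL genes of the rat table fell, under TMM and under library size alone. Adamtsl2 was at 19.6, 19.2, 25.5 and 23.5 CPM with AdGFP and 6.61, 6.71, 7.67 and 8.26 CPM with AdMettl5. The groups were far apart, and the log2 fold change was -1.58 (SE 0.113, adjusted p = 4.14e-07 in edgeR). Adamtsl3 fell from 52.5 ± 13.6 to 23.8 ± 4.39 CPM (SD, n = 4; log2 fold change -1.14, SE 0.171). Adamtsl4 (-0.61) and Adamtsl5 (-0.36), which both associate with microfibrils, fell less.

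Of the membrane-type MMPs, Mmp16 rose from 10.7, 12.6, 10.2 and 11.7 CPM to 29.8, 29.2, 35.2 and 23.8 CPM (log2 fold change 1.38, SE 0.114, adjusted p = 1.25e-06 in edgeR). Mmp17 rose slightly (0.29), while Mmp24 (-0.73) and Mmp14 (-0.35) fell, and Mmp15 did not pass (0.03). Mmp14 was at 300.1 ± 17.1 CPM with AdGFP and 236 ± 7.75 CPM with AdMettl5. The gelatinases moved in opposite directions. Mmp2 was at 1047, 1072, 1214 and 1136 CPM with AdGFP and 862, 790.2, 830.2 and 1042 CPM with AdMettl5 (log2 fold change -0.34, SE 0.0818, adjusted p = 0.00383 in edgeR), so that its highest AdMettl5 library came just under the lowest AdGFP library. Mmp9 rose from 10.5 ± 1.65 to 15.7 ± 1.83 CPM (log2 fold change 0.58, SE 0.117). Mmp12, the macrophage elastase, rose from 2.48 ± 0.191 to 7.66 ± 1.48 CPM (log2 fold change 1.63, SE 0.155), and Mmp11 (-0.23) and Mmp23 (-0.36) fell. With library size alone Mmp2, Mmp11 and Mmp23 were no longer called, at -0.21, -0.10 and -0.22 with adjusted p-values of 0.0847, 0.225 and 0.0536.

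Adam19, a membrane protease with a role in heart valve development, gave the lowest p of any member. It was at 476, 497, 457 and 486 CPM with AdGFP and 271, 277, 281 and 264 CPM with AdMettl5, a fall to 0.57 of the AdGFP level (log2 fold change -0.81, SE 0.0442, adjusted p = 5.62e-08 in edgeR). Adam23 (-0.86), Adam9 (-0.50) and Adam12 (-0.34) fell as well. Adam17 was the ADAM that rose, from 66.3 ± 2.14 to 89.1 ± 2.28 CPM (SD, n = 4; log2 fold change 0.43, SE 0.0439), and Adam10 did not pass the test, at 73.8 ± 4.24 and 74.6 ± 3.59 CPM.

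Of the ADAMTS genes 4 rose and 3 fell under TMM. With library size alone 6 were higher and 1 lower, as Adamts10 (-0.17, adjusted p = 0.099 in edgeR) and Adamts20 lost their calls and Adamts7 and Adamts19 gained one. Adamts1 rose from 56.7, 56.9, 61.6 and 60.1 CPM to 93.0, 84.7, 101 and 96.1 CPM (log2 fold change 0.67, SE 0.0587, adjusted p = 2.05e-06 in edgeR). Adamts8 (0.48) and the N-propeptidase Adamts14 (0.34) rose, and Adamts2 (-0.49) and Adamts10 (-0.30) fell. Adamts6 (0.40) and Adamts20 (-0.43) were the called members with the highest adjusted p, 0.0218 and 0.0158, and were named after their values were seen, to complete the count. Adamts6 lost its call without AdGFP library 1 or 2 or AdMettl5 library 1, leaving 26 of the 27 calls in each case. Adamts7 was at 81.5 ± 11.7 and 94.8 ± 5.47 CPM and missed the threshold (adjusted p = 0.0548 in edgeR).

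Of the 3 tested TIMPs 2 fell in NRVMs. Timp3 was at 96.0, 94.5, 99.2 and 99.3 CPM with AdGFP and 77.0, 78.5, 76.9 and 72.6 CPM with AdMettl5 (log2 fold change -0.35, SE 0.0435, adjusted p = 3.3e-05 in edgeR). Timp2 fell from 446 ± 27 to 364 ± 14.2 CPM (-0.29, SE 0.0526), a call that was lost with library size alone (-0.16, adjusted p = 0.0568). Timp1 was at 168, 162, 126 and 121 CPM with AdGFP and 153, 147, 135 and 107 CPM with AdMettl5, with overlapping groups (log2 fold change -0.09, adjusted p = 0.56 in edgeR). Timp4 had at most 5 counts in any rat library and was not tested.

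Cell markers also moved in NRVMs. Cardiomyocyte markers summed to 24800 to 27900 CPM with AdGFP and 9140 to 9960 CPM with AdMettl5, and all 7 were called lower. Fibroblast markers were at 9410 to 9900 and 7540 to 8310 CPM (5 of 6 called lower), although the cells had been pre-plated. Macrophage markers were at 94.4 to 113 and 67.8 to 83.4 CPM (3 of 6 tested called lower), endothelial markers were at 36.3 to 40.3 and 49.2 to 54.2 CPM (1 of 4 tested called higher), and smooth muscle markers overlapped at 2760 to 3480 and 3280 to 3760 CPM (2 of 5 called higher). Neutrophil markers were at or under 0.583 CPM in all 8 libraries. The part of these shifts in the values of the members was not tested.

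The TAC and NRVM comparisons share no library, and METTL5 was lost in the hearts and added in the NRVMs. Of 42 members tested in both, 9 were called in both, and 7 of these (77.8%) moved in opposite directions. Adamtsl2, Mmp23, Timp2, Adamts2, Mmp2, Adam9 and Adam12 rose in Mettl5-cKO TAC hearts and fell with AdMettl5. With library size alone as scaling, the NRVM calls of Mmp23, Timp2 and Mmp2 and the TAC call of Adam23 (-0.74, adjusted p = 0.0543 in edgeR) were lost. Adamts8 rose in both and Adam23 fell in both. Adam12 and Adamts8 passed the filter on low counts after TAC only through the Mettl5-cKO hearts, where they are high. The 77.8% counts all of these calls and was not recomputed without them. Of all 11029 genes tested in both, 993 were called in both and 540 (54.4%) were opposite. The comparisons differ in species, age, cell content and stimulus as well as in METTL5, which cannot be told apart here.

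**Figure D5:**
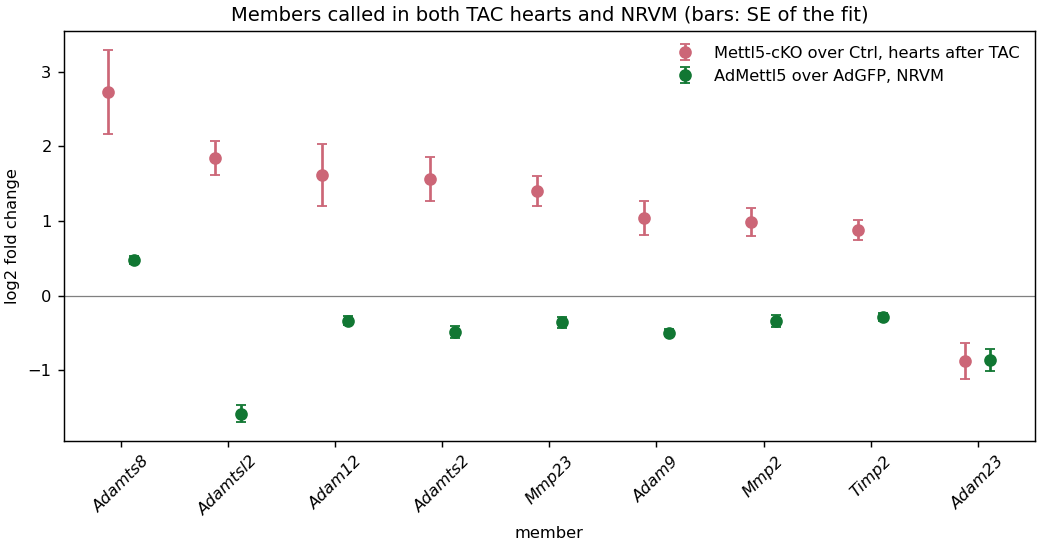
Log2 fold changes, with bars for the SE of the fit, of the 9 members called both in Mettl5-cKO hearts after TAC and in NRVMs with AdMettl5. Adamtsl2 is the widest apart, at 1.84 in hearts and -1.58 in NRVMs, and Adamts8 (2.73 and 0.48) and Adam23 (-0.88 and -0.86) have the same sign in both.

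The genes around the proteases were taken from a list of 50 activators, inhibitors, sheddase partners, substrates and surface partners. At 1 and 3 months 0 of 43 and 0 of 42 tested genes were called by edgeR. After TAC 18 rose and 2 fell of 42 tested, where 6.57% of all genes rose and 6.1% fell, with a median log2 fold change of 0.34. Scaled by library size alone, 20 were higher and 1 lower, where 12.6% and 3.21% of all genes were. Of the substrates 7 of 10 tested rose and 1 fell, with a median of 1.24 beside -0.003 for all genes. Pcolce2, an enhancer of procollagen C-proteinases, and Lrp1, an uptake receptor for proteases and their inhibitors, were among the genes with the lowest adjusted p-values. Pcolce2 rose from 12.6 ± 1.28 to 23.8 ± 4.08 CPM (SD, n = 4; log2 fold change 0.92, SE 0.128, adjusted p = 0.00707 in edgeR). Lrp1 was at 79, 79.9, 79 and 75.2 CPM in Ctrl and 201, 167, 159 and 114 CPM in Mettl5-cKO TAC hearts (log2 fold change 1.03, SE 0.146, adjusted p = 0.00717 in edgeR). All Mettl5-cKO hearts were above all Ctrl hearts for both.

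Comp, the cartilage oligomeric matrix protein that Adamts7 cuts, was singled out after its values were seen. It was at 0.842, 1.12, 1.30 and 1.74 CPM in Ctrl and 66.2, 29.0, 24.6 and 2.14 CPM in Mettl5-cKO TAC hearts (log2 fold change 4.6, SE 0.86, adjusted p = 0.0146 in edgeR). Mettl5-cKO library 4 was just above the Ctrl range, and library 1 was highest, as for most members that rose. The lowest p-values at 3 months were those of Bgn, the proteoglycan biglycan (log2 fold change 0.39), Pcolce2 (0.56) and Lrp1 (0.39), at adjusted p-values of 0.427 to 0.441, and at 1 month those of Comp, Serpine2 and Nrg1, with adjusted p-values of 0.971 to 0.973. At 1 month Comp was at 1.05 to 2.53 CPM in Ctrl and at 0, 0, 0.485 and 0 CPM in Mettl5-KO hearts.

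In NRVMs 19 of the 44 tested partners were higher and 14 lower, where 27.1% and 25.7% of all genes were, with a median log2 fold change of 0.11. Scaled by library size alone, 22 were higher and 10 lower, where 39% and 15.6% of all genes were. Pcsk6, a proprotein convertase, rose from 80.8 ± 0.898 to 110 ± 1.71 CPM (SD, n = 4; log2 fold change 0.45, SE 0.0388, adjusted p = 1.96e-06 in edgeR). Cd44, a hyaluronan receptor that docks MMPs at the cell surface, rose by 0.70 on the log2 scale. A2m, a general protease trap, fell by 0.82.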

How the data were processed

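RNA was sequenced from hearts and NRVMs, 4 libraries per group. Per the labels and the methods of the study, the authors aligned reads with HISAT2 (2.0.4) to GRCm38 or Rnor_6.0, made estimated counts per gene with StringTie (2.1.4), and compared groups with DESeq2 (1.4.5). The deposited estimated counts are whole numbers without scaling, so rounding changed nothing. They had been planned for as plain counts. Strandedness is not given in the sources used here.

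Genes of each table were filtered with filterByExpr (minimum count 10, minimum total 15), scaled by TMM and tested in edgeR (4.0.16) with a quasi-likelihood fit per table, Benjamini-Hochberg adjusted over all genes tested. The median SE of a log2 fold change over the genes of a table was 0.175 for the 1-month, 0.157 for the 3-month, 0.134 for the TAC and 0.0807 for the NRVM libraries. A further fit over 16 libraries tested the interaction of genotype and table. DESeq2 (1.42.0), other scalings, other filters, leaving out each library and, at 1 month, a replicate block were the alternatives. The scripts were tested on simulated data.

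At 1 month columns were matched to samples, and elsewhere to a group only, with libraries numbered 1 to 4 by the numbers in the column names. Lengths per kb are unions of exons in GENCODE M21, which held 55141 of 55487 gene IDs (99.4%) and all 85 members. No ADAM was sorted by a zinc motif, as planned, since no protein sequence was used.

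The members, gene lists and tests were chosen with earlier results of these data known. Named were, after TAC and in NRVMs, the 25 called members with the lowest adjusted p, at 1 and 3 months the 3 with the lowest p, everywhere the 4 TIMPs, Mmp2, Mmp9, Mmp14, Adam10, Adam17 and Adamts1, the 5 highest members per length (CPM in NRVMs), and the 3 partners with the lowest adjusted p, of which 1 after TAC is not reported here. Other members are named where a subfamily, a cell type or a count required it, after their values were seen. Columns of the authors' own comparisons were not used.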

Additional observations from a re-analysis of the deposited data

Results flagged for a closer look

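For the named members, 154 groups of 4 libraries were examined for a library far from the other 3 by Dixon's gap test, and 4 were found. Chance alone gives about 1 in 20. Mmp2 in Ctrl hearts at 3 months was at 26.7 CPM in library 1 and at 22.0 to 22.6 CPM in the others. Mmp15 in METTL5-cKO TAC hearts was at 55.6 CPM in library 4 and at 33.9 to 37.4 CPM in the others. Adam17 in Ctrl TAC hearts was at 18.2 CPM in library 1 and at 19.9 to 20.2 CPM in the others. Adamts1 in Ctrl TAC hearts was at 53.9 CPM in library 2 and at 25.9 to 30.0 CPM in the others.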

How the results depend on the processing

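Directions and calls were recomputed with library size alone, DESeq2's size factors, DESeq2's own test, 2 other filters and without each library. After TAC, 5 of 13 members (Adamts7, Adamtsl2, Mmp23, Timp1 and Timp2) were called in all 14 settings, and in NRVMs 20 of 27. The share of all genes called in every setting is not given here. Adamts4 lost its call after TAC only where at least 10 counts were required in every library, and there it was not tested. Leaving out 1 library gave 6 to 12 members higher and 1 to 7 lower after TAC, and 0 to 9 with a genotype effect that differed between TAC and 3 months. Without a filter on low counts 1 member was lower after TAC, and the share of all genes called lower there is not given here. With the limit on the fold change 1 was lower after TAC, and 2 were higher and 2 lower in NRVMs. DESeq2 called 2 members higher at 3 months and 2 with a differing effect. After TAC it called 12 higher and 4 lower, and in NRVMs 10 higher and 18 lower. The shares of all genes that DESeq2 called after TAC and in NRVMs are not given here. At an unadjusted p under 0.05, 2 members were lower at 1 month, and 5 were higher and 1 lower at 3 months. After TAC 23 of 46 members had such a p, of which 8 were lower, and 16 of 48 had a differing effect. In either direction 4.57%, 7.05%, 31% and 11.8% of all tested genes had such a p, in this order. The cause of these changes was not tested.

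Signs turned only in members that passed no test. With library size alone the log2 fold change was 0.039 for Mmp2 and 0.0015 for Adam10 at 1 month, 0.13 for Timp3 and 0.0539 for Adam17 after TAC, and 0.0456 for Timp1 in NRVMs. Without the filter it was 0.0014 for Mmp2 at 1 month. Leaving out 1 library also moved such values across 0. At 1 month they lay between -0.0034 and 0.19 for Timp2, -0.35 and 0.0121 for Timp3, -0.0804 and 0.37 for Timp4, -0.14 and 0.101 for Mmp2, -0.12 and 0.0882 for Adam10, -0.0702 and 0.25 for Adam17, -0.0334 and 0.33 for Adamts1, and -0.26 and 0.17 for Mmp15. At 3 months they lay between -0.0191 and 0.37 for Timp3, -0.15 and 0.22 for Timp4, and -0.32 and 0.23 for Mmp9. After TAC they lay between -0.0552 and 0.0345 for Timp3 and -0.0279 and 0.13 for Adam10, and in NRVMs between -0.17 and 0.0059 for Timp1 and -0.0102 and 0.0416 for Adam10.

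Numbered libraries of the 2 groups at 1 month were compared for pairing. Their deviations from the group means correlated at r = 0.239, 0.12, -0.107 and 0.078 for numbers 1 to 4. Libraries of the same number were each other's best match for number 1 only. The numbers as a whole thus did not pair them. With a replicate block at 1 month 0 members were higher and 0 lower, the same as without it. No paired analysis was possible for the other tables because the groups compared share no label numbers in their columns; in the NRVM table the AdMettl5 columns end in 1 to 4 and the AdGFP columns do not.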
